A study of Danio rerio with 27 samples.

Results

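The actinodin genes and1, and2, and3 and and4 were followed across 9 adult zebrafish tissues. The genes were chosen by their symbols, and 3 of the 4 symbols (and1, and2 and and3) were paired with an Ensembl identifier among the 32524 genes of the deposited tables. The gene and4 was not analysed here. Poly(A) RNA of wild-type TLAB zebrafish had been sequenced from tail, skin, muscle, heart, brain, testis, spleen, intestine and liver, with 3 replicates of each tissue and 27 libraries in all. All groups share this genotype and strain, and no group was treated. The labels do not say whether replicates are separate fish, so the p-values measure only the spread between these samples, which may be technical. The labels also do not say how much fin the tail samples hold.

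Actinodins are secreted structural proteins of actinotrichia, the unmineralised fibres that stiffen the fin fold of fish embryos and the tips of adult fin rays. Actinotrichia also contain fibrillar collagens, and they lie ahead of the bony rays (lepidotrichia) that osteoblasts build. Actinodin genes are present in fish and were lost in land vertebrates, and their loss in fish embryos impairs fin fold formation.

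Levels are given as TPM, in which reads are corrected for transcript length and every library has an equal total, so that levels can be compared between genes. The libraries held 5100481 to 14151312 estimated counts, apart from testis replicate 3 with 91119844. A level at or under 3 counts was treated as not distinguishable from 0, a floor that covers counting error only. Outside testis it was worth 0.085 to 0.26 TPM for and2 and 0.21 to 0.62 TPM for and3. For and1 the listed length of 6144 bases gave 0.031 to 0.093 TPM, which is too low. The lengths implied by the and1 values were 2092 to 4052 bases, and in liver replicate 3 a single count was 0.0386 TPM. The floor itself is set in counts and does not depend on this length. The tissue labels were checked against marker lists. The 14 epidermal markers summed to 57249 to 62320 TPM in tail libraries, to 4577 to 8084 TPM in libraries labelled skin and to 9980 to 17975 TPM in libraries labelled muscle, with none of the 14 at 0 in these 3 tissues. The 11 skeletal muscle markers summed to 8.79 to 25.3 TPM in tail libraries, to 61878 to 85110 TPM in libraries labelled skin and to 99288 to 120527 TPM in libraries labelled muscle. The libraries labelled skin thus held abundant muscle RNA, and they held less epidermal RNA than those labelled muscle, so tail against the 8 other tissues is also given without both. Mixed tissue and exchanged labels cannot be told apart here, and skin and muscle stand below for what the labels say. In bulk tissue, fewer cells of a type and less RNA per cell cannot be told apart.

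Of the actinodins, and1 (ENSDARG00000088514) was the most abundant in tail. It had 14.5, 10.3 and 5.46 TPM in the 3 tail libraries. It had 10.9, 14.5 and 5.74 TPM in brain. Tail and brain spanned nearly the same range, and these 6 libraries were all above the other 21. Testis followed with 3.33, 3.85 and 2.66 TPM, and spleen with 5.10, 1.96 and 1.32 TPM. In heart and1 had 3.07, 2.87 and 0.952 TPM, and in the libraries labelled skin 2.37, 2.26 and 0.374 TPM. Spleen and heart overlapped testis and skin, while every testis library was above every skin library. The libraries labelled muscle had 1.49, 1.64 and 0.285 TPM, intestine had 0.631, 0.699 and 0.155 TPM, and liver had 0.450, 0.232 and 0.0386 TPM. The last of the liver values is 1 count and lies under the floor, while the other 26 libraries were above it.

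The gene and2 (ENSDARG00000079302) was above the floor only in tail and testis among the 9 tissues. It had 1.24, 1.41 and 0.745 TPM in tail (31, 28 and 12 counts). It had 0.973, 0.769 and 1.05 TPM in testis (21, 19 and 171 counts), and the ranges of the 2 tissues overlapped. Each of the other 21 libraries held 2 counts or fewer, and the 6 libraries of intestine and liver held none. Tail and testis means made up 48.2% and 39.5% of the sum of the 9 tissue means of and2.

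The gene and3 (ENSDARG00000056873) was highest in testis, with 1.58, 1.28 and 2.77 TPM (14, 13 and 186 counts). In tail it had 0.683, 0.368 and 0.302 TPM from 7, 3 and 2 counts, so that only the first tail library was above the floor. All 3 testis libraries were above all 3 tail libraries. Spleen replicate 1 had 0.426 TPM (5 counts), and every other library of the remaining tissues held 2 counts or fewer. Testis means made up 66.9% of the sum of the tissue means of and3, and tail 16.1%.

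**Figure D1:**
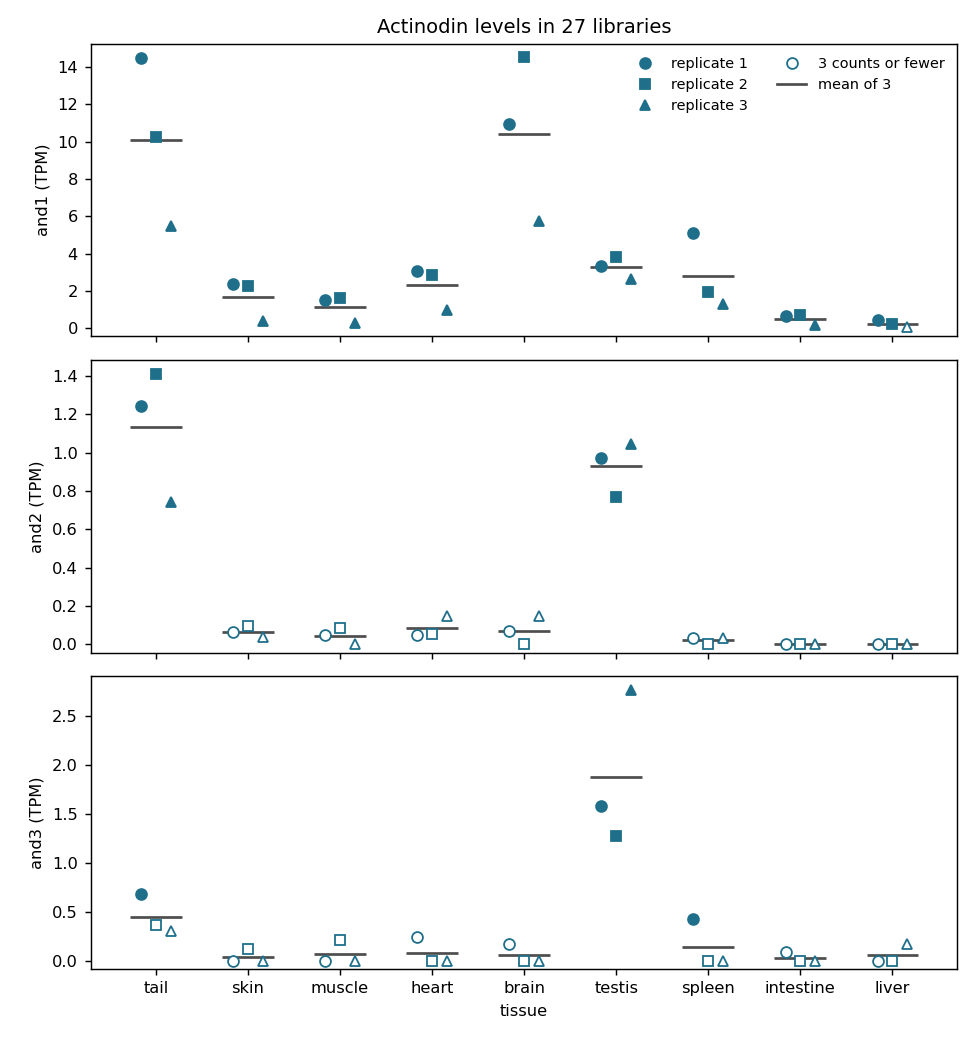
Level (TPM) of and1, and2 and and3 in each of the 27 libraries, by tissue, with the replicate number as marker shape, the mean of 3 libraries as a line and open markers for values of 3 counts or fewer. For and1, tail and brain stand above the other tissues and the triangle of replicate 3 is lowest in each tissue, whereas and2 is over the floor only in tail and testis and and3 is highest in testis.

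The first comparison asked whether actinodin levels in tail differ from those of the 8 other tissues, tested with limma on log2(TPM + 1) and p-values adjusted over 25245 genes by the Benjamini-Hochberg method. On this scale a fold change understates that of low genes. The gene and1 averaged 10.1 ± 4.53 TPM in tail (SD, n = 3) and was higher there than in the mean of the other tissues, with a log2 fold change of 1.86 (SE 0.32, adjusted p = 2.7e-05 from limma). It passed the call used here, which asks for an adjusted p under 0.05 together with a log2 difference of 1 or more, as did 14.8% of all genes in the higher direction and 12.3% in the lower. The median over all genes was -0.17. For and2, which averaged 1.13 ± 0.35 TPM in tail (SD, n = 3), the difference was 0.91 on the log2(TPM + 1) scale (SE 0.072, adjusted p = 3.7e-10 from limma). This passed the adjusted p, as 63.3% of all genes did without regard to fold, but lay under the fold limit of the call. With a pseudocount of 0.1 the and2 value was 2.79, and with edgeR on the rounded estimated counts it was 4.87, both past the call. For and3 the difference was 0.26 (SE 0.12, adjusted p = 0.064 from limma), which did not pass. With pseudocounts of 0.1 and 0.01 the and3 value was 1.42 and 3.26, and with edgeR it was 1.98, all past the call, on 12 counts in tail. With DESeq2, without the filter, after median-of-ratios rescaling and with the replicate block, and3 did not pass the call. Without the libraries labelled skin and muscle the values were 1.74 for and1, 0.88 for and2 and 0.20 for and3, with adjusted p of 5.6e-05, 2.4e-08 and 0.19 from limma.

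These tests cover genes that passed a filter of 1 TPM in 3 libraries. All 3 genes passed it, but and3 did so only through testis, and and2 through 2 tail libraries and 1 testis library. The p-values of and2 that set tail or testis above other tissues are therefore no independent support for those differences. The SE of each gene also rests on a spread pooled over all tissues, including those where and2 was at or under its floor. For and2 the SD ran from 0 TPM in intestine and liver, which held no reads, to 0.35 TPM in tail. The small SE and p-values of and2 thus do not measure the spread between tail libraries alone, and may understate it.

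Set against single tissues, and1 in tail was called higher than 7 of the 8 others. All 3 tail libraries were above all libraries of those 7 tissues, although tail replicate 3 (5.46 TPM) was only just above spleen replicate 1 (5.10 TPM). The ratio of mean TPM ran from 3.08 against testis and 3.61 against spleen to 20.4 against intestine and 42.0 against liver. In either direction, 58.3% of all genes were called between tail and testis, with 11.9% higher and 46.4% lower in tail. Between tail and spleen 28.7% were called either way, between tail and intestine 35.5% and between tail and liver 46.4%. For heart, muscle and skin these shares were 28.4%, 19.3% and 29.4%. The difference from testis was 1.29 on the log2(TPM + 1) scale (SE 0.42, adjusted p = 0.0087 from limma). That call was lost with pseudocounts of 0.1 and 0.01 (adjusted p = 0.067 and 0.13 from limma) and when tail replicate 1 was left out (1.01 on the log2 scale). With the replicate number as a block the SE was 0.24 (adjusted p = 4.8e-05 from limma). In that fit 74.7% of all genes had an adjusted p under 0.05 between these tissues.

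Brain was the exception for and1. Tail averaged 10.1 ± 4.53 TPM and brain 10.4 ± 4.41 TPM (SD, n = 3 each), a difference of -0.05 on the log2(TPM + 1) scale (SE 0.42, adjusted p = 0.95 from limma). Between these tissues 53.9% of all genes were called and the median over all genes was -0.68, so that most genes were lower in tail. The sign of the and1 difference turned under each other scaling, to 0.73 after median-of-ratios rescaling, 0.97 with edgeR and 0.82 with DESeq2, none of them past an adjusted p of 0.05 (0.18, 0.14 and 0.26). In the order of tissue means, brain, tail, testis, spleen, heart, skin, muscle, intestine and liver, tail and testis were the only neighbours told apart (an adjusted p under 0.05, as for 73.9% of all genes between these tissues).

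For and2, tail was above 7 of the 8 other tissues in all libraries, and the adjusted p from limma was 2.1e-09 against intestine, 1.6e-08 against skin and 1.8e-08 against muscle. The differences ran from 0.96 against heart to 1.08 against intestine and liver on the log2(TPM + 1) scale, so that the fold limit was reached against intestine, liver, muscle and spleen only. On this scale 1.08 is the most that the tail level of and2 allows. Against heart, brain and skin, which fell short of the limit, the ratio of mean TPM was 13.5, 15.6 and 17.1. Called in either direction were 28.4% of all genes between tail and heart and 19.3% between tail and muscle. Intestine and liver held no reads of and2, and with 3 counts per library taken as their floor the tail mean was at least 9.42-fold higher than intestine and at least 10.5-fold higher than liver. Testis was the exception for and2. Tail averaged 1.13 ± 0.35 TPM and testis 0.930 ± 0.14 TPM (SD, n = 3 each), a difference of 0.13 on the log2(TPM + 1) scale (SE 0.096, adjusted p = 0.21 from limma). On the rounded counts it was 1.30 with edgeR (adjusted p = 0.017) and 1.23 with DESeq2 (adjusted p = 0.041), so whether and2 was higher in tail than in testis depended on the scaling. Testis was above heart, the next tissue, by 0.83 (SE 0.096, adjusted p = 6.3e-08 from limma, beside 74% of all genes with an adjusted p under 0.05), and below that no neighbours were told apart.

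The gene and3 had lower values in tail than in testis in every library. Tail averaged 0.451 ± 0.20 TPM and testis 1.87 ± 0.79 TPM (SD, n = 3 each), a difference of -0.96 on the log2(TPM + 1) scale (SE 0.16, adjusted p = 1.5e-05 from limma), and in CPM (counts scaled to the library total) the tail libraries had 0.532, 0.270 and 0.224 against 1.20, 1.08 and 2.04 in testis. Since and3 was kept in the fit only through its testis libraries, this p is no independent support for the difference, and the count tests, of the same direction, did not pass (adjusted p = 0.24 with edgeR and 0.44 with DESeq2). Against the 7 remaining tissues the tail values of and3 rest on 12 counts in all. With every tail library under 1 TPM, the fold limit could not be reached on the log2(TPM + 1) scale. The ratio of mean TPM ran from 3.18 against spleen to 14.7 against intestine. The adjusted p from limma was 0.084 against spleen, 0.043 against muscle and 0.016 against intestine. Of all genes 43.1%, 33% and 51.3% had an adjusted p under 0.05 there. Spleen was the only one of the 7 that overlapped tail.

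The ratio of and1 to and2 was also formed in tail and testis. In tail, and1 had 11.7, 7.27 and 7.32 times the TPM of and2, and in testis it had 3.42, 5.0 and 2.54 times. The 2 sets of ratios did not overlap, but no test was run on them. They rest on 31, 28 and 12 counts of and2 in tail and on 21, 19 and 171 in testis. In the other tissues and2 was at or under its floor and no ratio was formed.

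Scales are dermal skeleton too, so skin was compared with tail and, with tail left out, with the 7 other tissues. Against skin, and1 averaged 10.1 ± 4.53 TPM in tail and 1.67 ± 1.12 TPM in skin (SD, n = 3 each), a log2 fold change of 2.08 (SE 0.42, adjusted p = 0.0003 from limma). Of all genes 21.6% were called higher and 7.76% lower in tail, and the median over all genes was 0.28, which rescaling by median of ratios set to 0.00 with and1 still at 1.64. The call was lost on the rounded counts, with 1.23 in edgeR (adjusted p = 0.10) and 1.34 in DESeq2 (adjusted p = 0.077). For and2 the tail libraries held 71 counts and the skin libraries 5, a ratio of CPM of 15 (95% exact interval 6.12 to 47.5, counting error only), and the difference was 0.99 on the log2(TPM + 1) scale (SE 0.096, adjusted p = 1.6e-08 from limma). Without regard to fold, 45% of all genes passed the adjusted p. For and3 the difference was 0.47 (SE 0.16, adjusted p = 0.021 from limma), resting on 12 counts in tail and 1 in skin.

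In skin against the 7 tissues without tail, no actinodin passed the test. The values were -0.24 for and1 (adjusted p = 0.51 from limma), -0.09 for and2 (adjusted p = 0.29) and -0.24 for and3 (adjusted p = 0.090), beside 8.27% of all genes called higher and 16.7% called lower. The sign for and1 and and2 turned under other scalings. Both comparisons rest on the libraries labelled skin, which carried muscle RNA, and have no value without them.

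The deposited lengths and values show that the quantification assigned and1 reads to more than 1 transcript, an analysis added after the values were seen. The estimated count divided by the TPM gives the effective length that the quantification used for a gene in a library, up to a factor per library. For and2 (2241 bases) and and3 (922 bases) this length was the listed one in every library with reads. For and1 it ranged from 2092 to 4052 bases. The shortest was in liver replicate 3 with its single count. The longest was in replicate 3 of skin, muscle and intestine (18.6, 9 and 7 counts). In 95.6% of 17259 genes longer than 2000 bases, the listed length exceeded the effective length by a whole multiple of 289 bases, and for and1 by 2 times that. The 2 extremes of and1 add up to the listed effective length of 6144 bases, as they would for a gene with 2 annotated transcripts of 2381 and 4341 bases, called short and long here. For each library the implied length then gives the split of the reads.

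The short transcript took nearly all and1 reads in tail, 95.9%, 99.0% and 97.5%, against 31.2%, 28.6% and 0% in skin. Brain was close to tail, with 93.7%, 93.5% and 86.6%. Testis had 85.6%, 77.6% and 66.0%, and the tail range lay above those of brain, testis and skin. In TPM, the short transcript had 14.2, 10.2 and 5.39 in tail, against 1.11, 0.986 and 0 in skin. The long transcript had 0.312, 0.054 and 0.0701 TPM in tail, against 1.26, 1.27 and 0.374 in skin. Tail was thus above skin in the short transcript and below skin in the long one, in all libraries. These shares are estimates for which the files give no error, and no test was run on them. The count tests of and1 do not correct for this difference in transcript length, while TPM does. Its part in their tail against skin values was not tested.

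**Figure D2:**
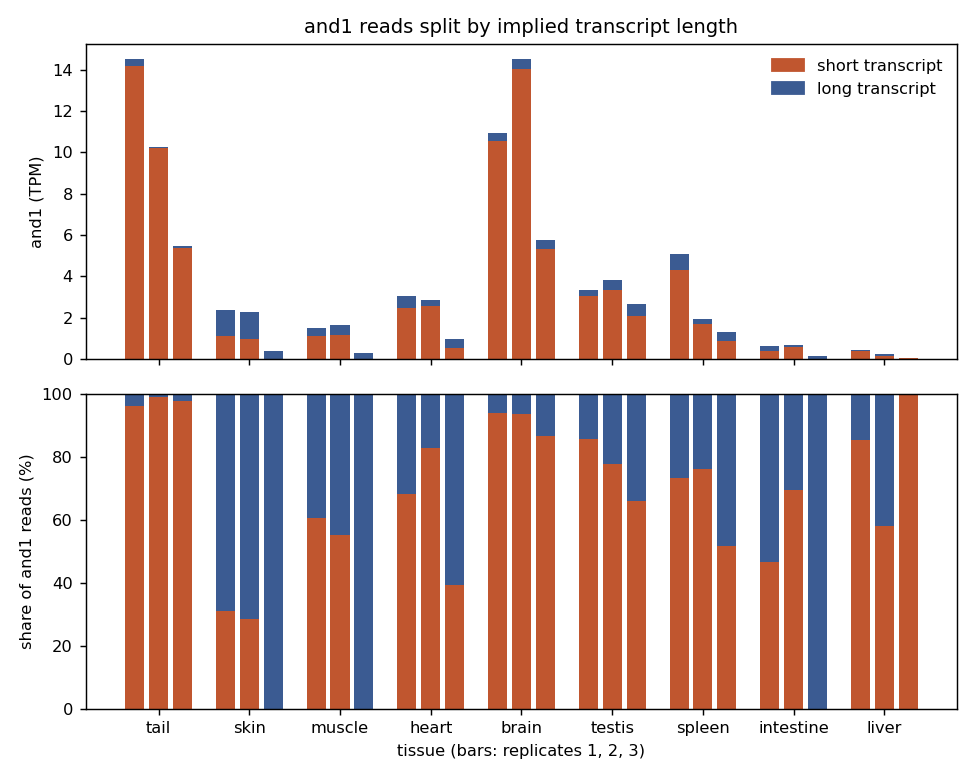
Upper panel, and1 level (TPM) in each library, stacked as short and long transcript; lower panel, share of and1 reads (%) on each, with 3 bars for replicates 1, 2 and 3 of each tissue. The short transcript holds 95.9% to 99.0% of the reads in tail and 0% to 31.2% in skin, and the full bar of liver replicate 3 rests on 1 count.

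In the RefSeq annotation of a later assembly (GRCz12tu), and1 overlaps adipoqa, a gene of the adiponectin family, whose founding member is a hormone of fat cells. The libraries were made with a strand-specific kit, but whether reads were assigned by strand is not given in the sources used here, and without strand reads of overlapping genes cannot be told apart. The estimated count of and1 was not whole (by more than 0.01) in 8 of the 27 libraries, as happens when reads also match other transcripts, and that of and2 and and3 was whole in all 27. All 3 skin libraries were among the 8 (99.8, 67.2 and 18.6 counts), and of tail only replicate 1 (344.2 counts). The transcript shares of and1 in skin rest on these 3 libraries. Among the matched symbols, 2 identifiers carry the symbol ADIPOQ, and which of them is adipoqa is not given. They averaged 0.815 and 0 TPM in tail and 20.7 and 71.2 TPM in skin, and 7.83 and 10.1 TPM in muscle. Their part in the long-transcript reads of and1 was not tested. Among the other annotated neighbours, cops9, a subunit of the COP9 signalosome, lies beside and1 and had 18.1 TPM in tail and 133 TPM in brain. A synaptic vesicle protein gene, vamp2, lies beside and3 and had 2.67 TPM in tail, 496 TPM in brain and 44.0 TPM in testis. On the other side of and3, ap4m1 was highest in testis, as and3 was, with 17.2 TPM against 9.54 TPM in brain and 1.86 TPM in tail. The 4 actinodins lie on 4 different chromosomes in that annotation.

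Replicate 3 had the lowest and1 level in all 9 tissues. The ratio of replicate 3 to the mean of replicates 1 and 2 had a median of 0.32 and ran from 0.11 in liver to 0.74 in testis, with 0.44 in tail and 0.45 in brain. In CPM replicate 3 was again lowest in 9 of 9 tissues. Of the 25245 genes tested, 16 had replicate 3 lowest in every tissue, and 54 and 18 had replicate 1 or replicate 2 lowest in every tissue. The short transcript of and1 was lowest in replicate 3 in 9 tissues and the long one in 3. For and2, in the tissues above its floor, replicate 3 was lowest in tail and highest in testis. What the replicate number stands for is not given in the labels, and a part of fish, day or preparation in this pattern was not tested.

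The genes that share the actinodins' setting were described from lists of other fin components. Of 13 listed collagens of fins 7 were matched, 4 of them fibrillar (types I and V) and 3 of the fibril-associated type IX. Unmatched symbols included col1a1b, col2a1a and col2a1b. Of the 7, 5 rose in tail against the 8 other tissues (col1a1a, col1a2, col5a1, col5a2b and col9a3) and none fell. Beside this, 14.8% of all genes were called higher and 12.3% called lower. The list median was 1.93 on the log2(TPM + 1) scale beside -0.17 over all genes. Means of col1a1a, col1a2 and col5a1 were highest in tail, with col1a1a at 233 TPM in tail and 199 TPM in muscle. Those of col5a2b and col9a3 were highest in testis, with 5.86 and 4.48 TPM against 5.11 and 4.26 TPM in tail. The largest change was that of col1a2, a chain of type I collagen, with 267, 261 and 176 TPM in tail against 39.9, 65.0 and 46.5 TPM in skin. Its log2 fold change over the 8 tissues was 4.30 (adjusted p = 9.2e-12 from limma). Libraries labelled muscle averaged 156 TPM of col1a2, between skin and tail. Of 9 matched collagen processing genes (16 listed) 4 rose (pcolceb and the lysyl oxidases lox, loxl1 and loxl2a) and none fell. The shares over all genes were the same 14.8% and 12.3%, and the list median was 0.34. Not all that rose were highest in tail. On average lox had 5.46 TPM in tail, 5.24 TPM in skin and 8.43 TPM in muscle, and loxl1 had 16.7 TPM in tail and 36.4 TPM in heart. The mean of loxl2a was highest in tail (44.7 TPM, with liver next at 35.0 TPM). Among the processing genes pcolceb, of the procollagen C-endopeptidase enhancer family, had 69.1, 68.5 and 56.6 TPM in tail against 0.419, 0.929 and 0.706 TPM in skin, without overlap. It rose by 4.81 on the log2 scale over the 8 tissues (adjusted p = 6.0e-16 from limma).

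Of 20 fin position and patterning genes kept by the filter (21 of 40 symbols matched), 13 rose in tail and none fell, beside 14.8% of all genes higher and 12.3% lower, with a median of 1.54. Position along the fin axis is marked by posterior Hox genes, of which hoxa13b had 37.3, 26.8 and 35.8 TPM in tail against 0, 0.085 and 0 TPM in skin. It had the largest fold change of the list, 4.87 (adjusted p = 4.3e-16 from limma). The highest level was that of hapln1a, a link protein of hyaluronan matrix, with 68.9, 85.1 and 53.8 TPM in tail against 3.84, 2.73 and 2.71 TPM in skin. Tail libraries alone can meet the filter, as for evx1 (2.86, 2.20 and 3.69 TPM in tail, on average 0.936 TPM in testis, the next tissue). The matched gene left out, hoxd13a, averaged 0.194 TPM in tail and 0.801 TPM in intestine. Counts and p-values of listed genes higher in tail, here and in the other lists, are therefore no independent support for those differences. Of 12 matched osteoblast genes (16 listed) 9 rose and none fell, against the same shares, with a median of 1.92. The largest change was in spp1 (osteopontin), with 114, 159 and 35.8 TPM in tail against 0.429, 0.442 and 0.470 TPM in skin. The highest level was in sparc (osteonectin), with 1362, 1583 and 1595 TPM in tail against 448, 411 and 464 TPM in skin. Libraries labelled muscle averaged 6.05 TPM of spp1 and 653 TPM of sparc. The 3 osteoblast genes not called were sp7 (0.85 on the log2(TPM + 1) scale), scpp5 and scpp7. On average scpp5 had 0 TPM in tail and 2.66 TPM in testis, and scpp7 had 0.119 TPM in tail and 9.86 TPM in muscle. Among those that rose, phex averaged 7.39 TPM in tail and 8.02 TPM in muscle.

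Markers of other cell types moved in the same contrast. All 14 matched epidermal markers (16 listed) rose in tail, with a median of 6.22. Of 10 skeletal muscle markers kept by the filter (17 listed) 9 fell, with a median of -2.60. Over all genes 14.8% were higher and 12.3% lower. Without the libraries labelled skin and muscle the counts of the 4 fin lists and of the epidermal list were the same, and 1 muscle marker fell in place of 9. The part of epidermal content in the actinodin values was not tested.

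Against skin alone, where 21.6% of all genes were higher and 7.76% lower in tail, 5 of 7 fin collagens, 12 of 20 patterning genes, 9 of 12 osteoblast genes and 13 of 14 epidermal markers were higher in tail. Of the collagen processing genes 2 were higher (pcolceb and loxl1) and 1 was lower (p4ha1a, a prolyl hydroxylase subunit) of 9, shares near those over all genes. The guidance ligand gene sema3d, 1 of the patterning genes, and all 10 muscle markers were lower. Of these, loxl1, p4ha1a and sema3d were named after their values were seen. In tail against testis, where the difference of and2 did not pass in the deposited TPM, 3 of 7 fin collagens, 4 of 9 collagen processing genes, 11 of 20 patterning genes and 7 of 12 osteoblast genes were higher in tail, and 0, 3, 3 and 1 were lower, beside 11.9% of all genes higher and 46.4% lower. In tail against brain, where that of and1 did not pass, the counts in that order of lists were 4 of 7, 5 of 9, 12 of 20 and 7 of 12 higher, and 0, 0, 1 and 0 lower, beside 12.8% and 41% of all genes.

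**Figure D3:**
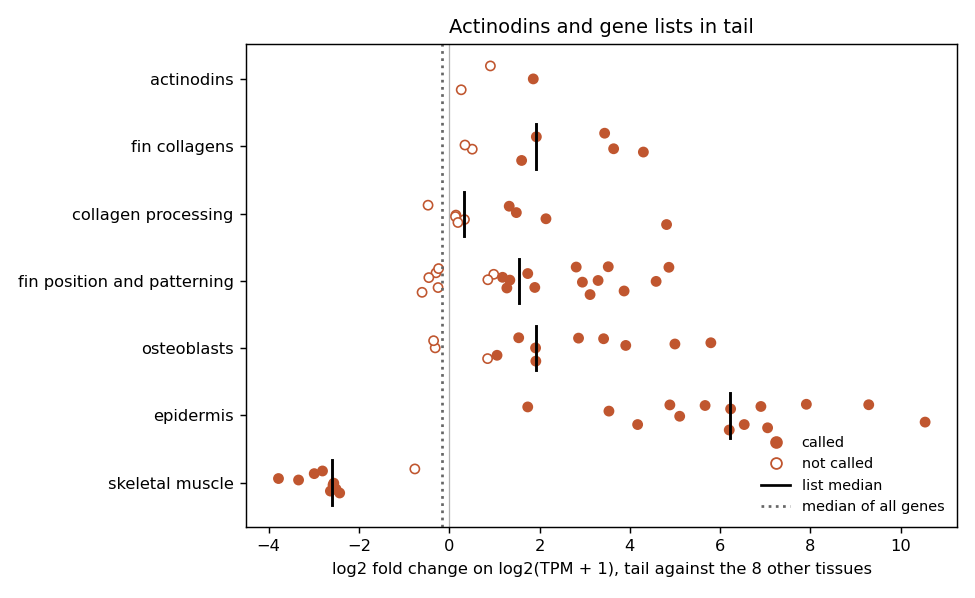
Log2 fold change on log2(TPM + 1) of tail against the 8 other tissues for and1, and2 and and3 and for the members of 6 gene lists (1 point per gene, filled where called, list median as a bar, median of all genes of -0.17 as a dotted line). The point of and1 lies at 1.86, those of and2 and and3 at 0.91 and 0.26 are open, and the list medians run from -2.60 for muscle to 6.22 for epidermis.

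The genes whose levels over the 27 libraries were most like those of each actinodin were found by Pearson's r on log2(TPM + 1), given as a description since libraries of a tissue share their source. For and1 they were INTS6L, MNT, hmgn3, CHST7 and GIT1, with r of 0.87 to 0.88. The gene hmgn3, a nucleosome-binding protein, also ranked first by Spearman's rho (0.90), and averaged 85.9 TPM in tail, 194 TPM in brain, 69.3 TPM in testis and 10.4 TPM in skin. These 5 genes were highest in brain or in tail, as was and1.

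For and2 they were COL11A2, htra4, MXRA5, lamb4 and pla2g4f.2, with r of 0.95 to 0.97. COL11A2, a chain of the fibrillar collagen type XI, averaged 3.98 ± 2.11 TPM in tail and 4.57 ± 1.30 TPM in testis, with 0.0719 ± 0.087 TPM in skin (SD, n = 3 each). The gene lamb4, a laminin chain, averaged 5.78 ± 3.14 TPM in tail and 2.41 ± 1.13 TPM in testis, and htra4, a serine protease, averaged 9.01 ± 3.72 TPM in tail and 4.27 ± 0.71 TPM in testis. All 5 had means under 1 TPM in the other 7 tissues. By Spearman's rho they were less alike, at 0.68 to 0.83, and none was among the first 5.

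For and3 they were CYP11A1, si:ch1073-66l23.4, zgc:66483, zgc:112408 and ahrrb, with r of 0.93 to 0.94. CYP11A1, the side-chain cleavage enzyme that starts steroid hormone synthesis, averaged 0.340 TPM in tail and 6.07 TPM in testis, and all 5 were highest in testis. The 50 most similar genes of each actinodin had none in common with those of another. Such overlaps were not counted for other genes, so this count shows nothing particular to the actinodins.

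**Figure D4:**
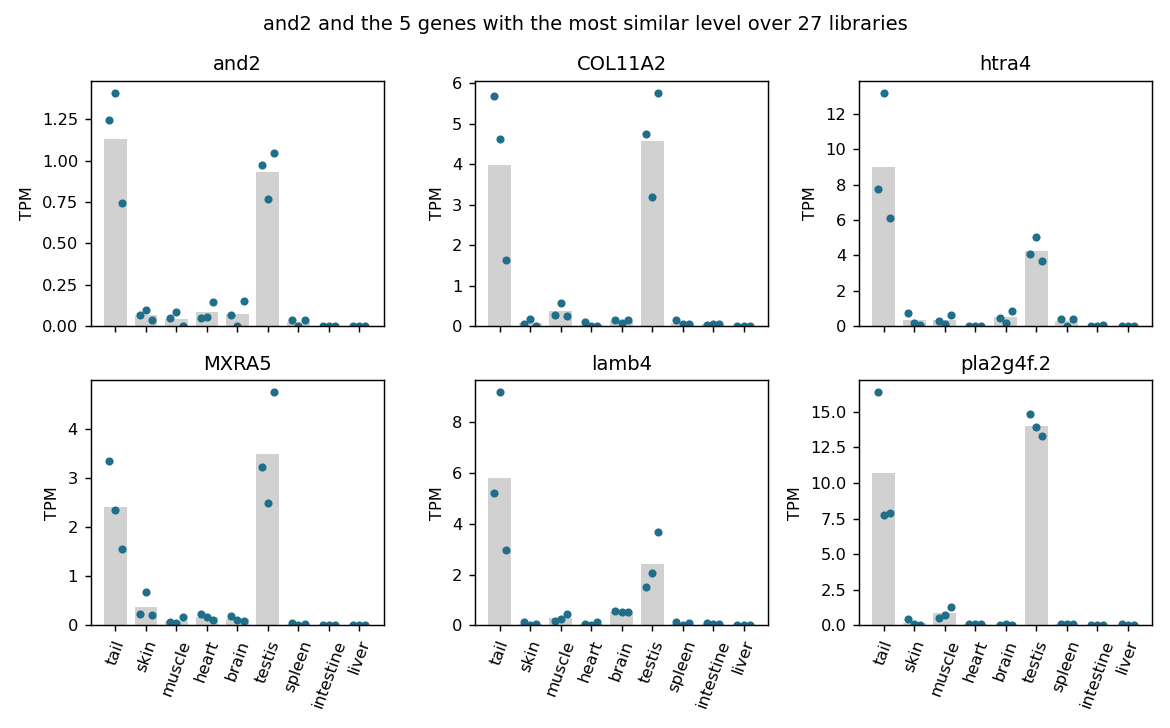
Level (TPM) of and2 and of the 5 genes most like it in 9 tissues, with bars for means and points for the 3 libraries of a tissue. In each panel tail and testis hold the highest means, with and2 at 1.13 TPM in tail and 0.930 TPM in testis.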

How the data were processed

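Poly(A) RNA libraries of 9 tissues with 3 replicates each were grouped by the tissue in the labels. For each library the authors deposited estimated counts of reads per gene, not normalized, and TPM, scaled for effective length and library. The deposited lengths, in bases, were used to find the effective length behind each and1 value. The submitters' processing notes name SAMtools 1.9, cutadapt 1.18, HISAT2 2.1.0, kallisto 0.43.0 and the build GRCz11, with no role for each; the annotation is not given in the sources used here. Symbols came from a table of Ensembl identifiers (29201 of 32524 matched), and listed symbols without an exact match were matched in capitals.

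The 25245 genes that reached 1 TPM in 3 or more libraries were fitted with limma 3.58.1 in R 4.3.3 on log2(TPM + 1), with 1 mean for each tissue and a trended eBayes. Alternatives were pseudocounts of 0.1 and 0.01, no filter, median-of-ratios rescaling over 14858 genes, a replicate block, edgeR 4.0.16 (quasi-likelihood, TMM) and DESeq2 1.42.0 on estimated counts rounded to whole numbers, and each library left out in turn with the gene list kept. The contrasts of tail with brain and testis, the fits without skin and muscle libraries and the transcript split were chosen after seeing the data. Count ratios have exact 95% intervals. The main limma fit and the edgeR and DESeq2 fits were tried on simulated data, for tail against the other tissues only. The other alternatives were not. No outcome is given here, so the simulation is no evidence for genes with few counts, such as and2 and and3. The named genes are the actinodins, the 5 genes with the highest Pearson's r for each, and of each fin list the members with the largest change and highest level in tail. Further list members were named after their values were seen. The members and lists were chosen with earlier results of these data known.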

Additional observations from a re-analysis of the deposited data

How the results depend on the processing

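The direction of and1, and2 and and3 in tail against the 8 other tissues and against skin held under every alternative run. Leaving out each library moved tail against the 8 others from 1.57 to 2.21 for and1, from 0.82 to 1.05 for and2 and from 0.15 to 0.34 for and3, and tail against skin from 1.65 to 2.42, from 0.89 to 1.13 and from 0.36 to 0.55. In skin against 7 tissues it gave -0.47 to 0.18 for and1 (0.18 without skin replicate 3), -0.11 to -0.07 for and2 and -0.29 to -0.21 for and3. In tail against brain it gave -0.39 to 0.30 for and1, above 0 without brain replicate 1 (0.03), brain replicate 2 (0.21) or tail replicate 3 (0.30).

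Low genes passed the fold limit on scales that shrink them less, with tail against the 8 others at 2.79 (pseudocount 0.1), 4.52 (pseudocount 0.01), 4.87 (edgeR) and 4.43 (DESeq2) for and2, and 1.42, 3.26 and 1.98 (the first 3) for and3. Tail against skin gave and2 2.86, 3.94, 3.33 and 3.49, and and3 2.03 with pseudocount 0.1, while and1 fell short at 1.23 (edgeR) and 1.34 (DESeq2). Without tail replicate 3, and2 passed at 1.05 and 1.13, and against skin it passed at 1.01 without skin replicate 2. In skin against 7 tissues and1 turned to 0.17 (median of ratios), 0.96 (edgeR) and 0.84 (DESeq2), and and2 to 0.66 (pseudocount 0.01), 0.013, 1.76 and 1.08. In tail against brain and1 turned to 0.73, 0.97 and 0.82. The cause was not tested.

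Counts of called genes moved with the scale. In tail against the 8 others, lower genes were 5314 (pseudocount 0.1) and 4797 (DESeq2) beside 3104. In skin against 7 tissues, 2089 genes higher and 4211 lower became 5048 and 1733 (edgeR), 4540 and 2534 (DESeq2) and 3053 and 1855 (median of ratios), with 7008 lower at pseudocount 0.1. In tail against skin, 5462 higher and 1958 lower became 3044 and 4164, 3505 and 3894, and 2693 and 2887. The median over all genes in skin against 7 tissues, -0.48, was -0.18 after rescaling.

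Same-numbered libraries of different tissues had a mean correlation of deviations of 0.11 (-0.05 to 0.32 over 108 pairs, 54 over 0.1). The main fit does not pair samples by number, since the labels do not say what the numbers mark. Its p-values thus take no account of any spread that goes with the number. The replicate block changed no call, and each actinodin still had 1 pair of neighbours told apart in the order of tissues, a fit added after seeing the data: and1 kept 1.86 in tail against the 8 others (adjusted p = 1.7e-08 from limma) and the counts became 3732 higher and 3119 lower. Depth limits and2 outside tail and testis and and3 outside testis, where libraries hold 5 counts or fewer apart from tail replicate 1 with 7.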

Other observations

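Libraries labelled muscle were above those labelled skin in several fin genes: hapln1a averaged 23.7 TPM in muscle and 3.09 TPM in skin, spp1 6.05 and 0.447 TPM, and pcolceb 5.49 and 0.684 TPM. For and1 the order was the other way, with 1.14 ± 0.74 TPM in muscle and 1.67 ± 1.12 TPM in skin (SD, n = 3 each), which differed by less than the spread between replicates. These genes were chosen after their values were seen. For and1, skin was above muscle by 0.28 on the log2(TPM + 1) scale (SE 0.42, adjusted p = 0.74 from limma). The short transcript of and1 averaged 0.757 ± 0.66 TPM in muscle and 0.697 ± 0.61 TPM in skin (SD, n = 3 each). The long transcript averaged 0.382 ± 0.10 TPM in muscle and 0.969 ± 0.51 TPM in skin, so the order of and1 was that of its long transcript only. The differences of hapln1a, spp1 and pcolceb were not tested.

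The other genes with replicate 3 lowest in all 9 tissues included FBXO3, OLFML3, SERPINB1, CYP27A1, SLC16A8, cyp2p10, baiap2l2b and mtus1a.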
